A study of Mus musculus with 15 samples.

Results

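The 7 subunits of respiratory complex I that mice encode in mitochondrial DNA (mt-Nd1, mt-Nd2, mt-Nd3, mt-Nd4, mt-Nd4l, mt-Nd5 and mt-Nd6) were followed in RNA of plasma extracellular vesicles (EVs). They were taken by gene symbol from all 43472 gene rows of the deposited counts, and they are 7 of the 13 mRNAs and of the 37 genes of the mitochondrial genome. Reads were counted on 5 of the 7 genes in at least 1 library, and 4 of them (mt-Nd1, mt-Nd2, mt-Nd4 and mt-Nd5) had reads in at least 14 of the 15 libraries.

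The study asked what EVs of healthy and diseased mice carry, and the libraries fall into 3 conditions: 3 WT-derived, 6 dystrophic-derived and 6 hypertrophic-derived. WT mice were black 6 (C57BL/6) mice, dystrophic mice were Sgcb null, lacking the muscle membrane protein beta-sarcoglycan in every cell, and hypertrophic mice carried the genotype MAGIC F1 by their sample labels but Mstn null by the methods of the study, so that only the condition is used here. Each library pooled the EVs of 2 to 3 mice aged 3 to 6 months, none of them treated, and the little RNA obtained was amplified before sequencing of single 50-base reads. The labels name serum, while the design text names plasma. The reads that one library placed on genes ranged from 27227 to 32563362. The titles and the counts of 6 libraries carry different library numbers, in such a way that dystrophic replicates 4 to 6 and hypertrophic replicates 1 to 3 appear to be crossed. Conditions follow the labels, and the main values are also given with these libraries exchanged. Sgcb had no reads in the WT-derived or dystrophic-derived libraries and was read in 1 of 6 hypertrophic-derived libraries, with 695 reads. Mstn was at 0 in all 15. Mstn could therefore not check the labels, and Sgcb could bear at most on the label of that 1 library.

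Complex I, or NADH dehydrogenase, is the largest enzyme of the respiratory chain. It passes electrons from NADH to ubiquinone and pumps protons across the inner mitochondrial membrane, and all of its mitochondrially encoded subunits sit in the membrane arm that does the pumping. They are made on mitochondrial ribosomes and joined to many subunits that the nucleus encodes, so that the enzyme needs both genomes. Mitochondrial genes are transcribed as long RNAs from both DNA strands, and the mRNAs are cut out, mostly at the tRNAs between them. Most of these mRNAs, but not all, are given short poly(A) tails. Of the members, mt-Nd6 is read from the opposite strand to the other 6.

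The positions were taken from GENCODE M21 on the mouse genome GRCm38 (mm10). The genes lie at chrM:2751-3707 (mt-Nd1), chrM:3914-4951 (mt-Nd2), chrM:9459-9806 (mt-Nd3), chrM:9877-10173 (mt-Nd4l), chrM:10167-11544 (mt-Nd4) and chrM:11742-13565 (mt-Nd5) on the plus strand and at chrM:13552-14070 (mt-Nd6) on the minus strand. Each is a single exon without an intron, and they are between 297 bases (mt-Nd4l) and 1824 bases (mt-Nd5) long. The last 30 bases of each are shown from 5′ to 3′ because they show how each reading frame ends, with the bases of the last codon in capitals.

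mt-Nd1: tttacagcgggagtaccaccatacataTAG
mt-Nd2: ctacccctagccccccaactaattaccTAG
mt-Nd3: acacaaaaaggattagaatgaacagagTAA
mt-Nd4: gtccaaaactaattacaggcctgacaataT
mt-Nd4l: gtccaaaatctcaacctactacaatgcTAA
mt-Nd5: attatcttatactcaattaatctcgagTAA
mt-Nd6: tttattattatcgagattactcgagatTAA

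mt-Nd4 ended 1 base past its last whole codon, on a lone T, and it is known that such stop codons are completed to UAA by the poly(A) tail. The other 6 ended on a whole stop codon, TAG in mt-Nd1 and mt-Nd2 and TAA in mt-Nd3, mt-Nd4l, mt-Nd5 and mt-Nd6. The base composition of mt-Nd6 stood apart in its own sense strand, with 5.97% C and 43.7% T, against at least 22.1% C and at most 32.8% T in the other 6 genes.

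mt-Nd4l and mt-Nd4 overlap. The 7 bases at chrM:10167-10173 end mt-Nd4l and begin mt-Nd4, as they do in the bicistronic mRNA that the pair is known to share. The whole of mt-Nd4l and the first 40 bases of mt-Nd4 (chrM:10167-10206) are shown with these bases in capitals.

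mt-Nd4l whole: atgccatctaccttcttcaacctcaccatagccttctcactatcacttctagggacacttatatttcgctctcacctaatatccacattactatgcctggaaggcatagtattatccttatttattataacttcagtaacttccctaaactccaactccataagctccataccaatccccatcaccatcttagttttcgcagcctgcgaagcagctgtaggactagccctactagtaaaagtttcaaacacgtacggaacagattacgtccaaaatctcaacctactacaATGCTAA
mt-Nd4 start: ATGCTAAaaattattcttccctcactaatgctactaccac

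On opposite strands, mt-Nd5 and mt-Nd6 overlap by 14 bases at chrM:13552-13565, in capitals in the last 40 bases of each (chrM:13526-13565 for mt-Nd5 and chrM:13552-13591 for mt-Nd6).

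mt-Nd5 end: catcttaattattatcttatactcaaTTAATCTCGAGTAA
mt-Nd6 end: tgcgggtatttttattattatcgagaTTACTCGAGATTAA

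The sources differ on whether the library kit kept the strand, and the counting mode is not given in the sources used here. If reads were counted without strand, reads of mt-Nd5 and mt-Nd6 within these 14 bases could not be assigned to either.

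Detection split the members sharply. mt-Nd1, mt-Nd4 and mt-Nd5, 3 core subunits of the membrane arm, had reads in 15 of 15 libraries, with 100442, 114470 and 61008 reads in all. mt-Nd2, another core subunit, had 67050 reads and was missed only in hypertrophic replicate 5, where 0 reads allow a level of up to 9.13 CPM (counts scaled to a library total of 1000000 reads on genes). By contrast, mt-Nd3 had 25 reads in dystrophic replicate 1, 1 read in dystrophic replicate 6 and 228 reads in hypertrophic replicate 2, and none elsewhere. mt-Nd4l and mt-Nd6 had 0 reads in every library, which over the 71507699 gene reads of all 15 libraries allows up to 0.0420 CPM. That limit takes 3 counts as the most a count of 0 allows and covers counting error only, since amplified copies are not independent molecules. It bounds the reads counted on a gene. It would not bound the RNA of mt-Nd4l if reads of shared sequence, described below, were left uncounted. In single libraries the limit ranged from 0.0921 CPM in dystrophic replicate 6 to 110 CPM in WT replicate 1, so that in the shallowest library even a moderate level could not have been seen.

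The undetected and scarcely detected members differ in how much of their sequence occurs elsewhere in the genome. Nuclear DNA holds copies of mitochondrial genes, and a read that matches a gene and its copy equally well has no unique place. Every stretch of 50 bases, the read length, was therefore looked up in the other GENCODE M21 transcripts on either strand. All 248 such windows but 3 were shared in mt-Nd4l (98.8%), with the pseudogene Gm10222, and all 299 but 6 in mt-Nd3 (98.0%), with Gm28438. mt-Nd4 shared 827 of 1329 windows (62.2%) with Gm28439, mt-Nd2 8.19% with Gm13339 and mt-Nd5 7.61% with Gm11407 and Gm4076, while mt-Nd1 and mt-Nd6 shared none. Only annotated transcripts could be searched, so these shares are lower bounds.

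The copies of mt-Nd3, mt-Nd4l and mt-Nd4 lie in a block of 7 such pseudogenes at chr1:24611535-24616197, which spans 4663 bases. The mt-Nd4l copy matched 294 of its 294 aligned bases and the mt-Nd4 copy 876 of 876. The mt-Nd3 copy differed at 1 of 345 bases, T3C, counted from the first base of the gene, which is in capitals below within the first 120 bases (chrM:9459-9578). mt-Nd4 is shown across the end of its copy (chrM:10983-11102), with the bases past the copy, after base 876, in capitals.

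mt-Nd3 start: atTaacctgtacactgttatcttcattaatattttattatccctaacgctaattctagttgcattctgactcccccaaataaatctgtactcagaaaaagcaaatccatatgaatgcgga
mt-Nd4 edge: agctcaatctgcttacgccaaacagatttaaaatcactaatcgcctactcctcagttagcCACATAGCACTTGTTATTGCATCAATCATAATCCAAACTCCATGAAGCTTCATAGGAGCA

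None of the 3 copies had a read in any library, and the 7 copies of the block together had 130 reads. The deposited tables record reads aligned at several places on a separate line, with 46618 such alignments in WT replicate 1 and 5969505 in WT replicate 2, and do not say from which genes they came. Across all 13 mitochondrial mRNAs, the 5 with at least 90% shared windows had between 0 and 254 reads. The other 8 had between 0 and 315171 reads, and mt-Nd6 was the member among them with none, although none of its windows was shared. Of the windows of the well-covered members, 908 of 908 in mt-Nd1, 908 of 989 in mt-Nd2, 1640 of 1775 in mt-Nd5 and 502 of 1329 in mt-Nd4 were found in no other transcript. Whether shared sequence set the low counts was not tested.

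**Figure D1:**
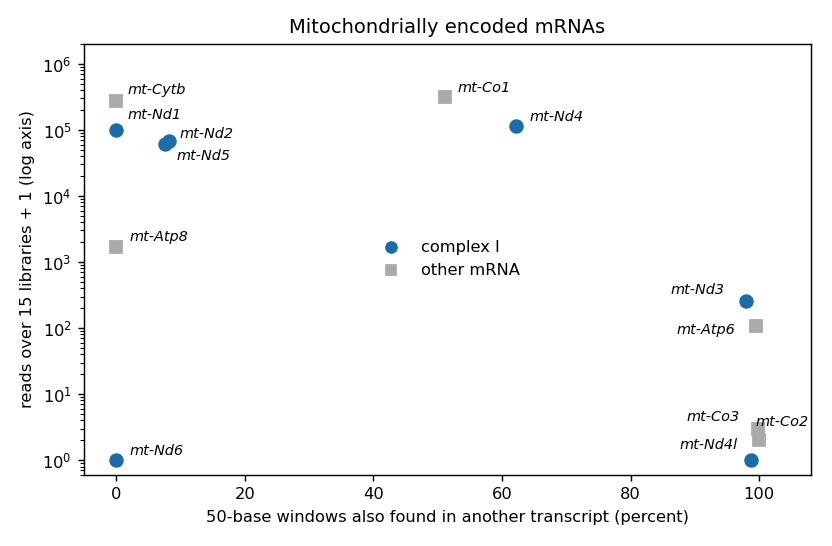
Reads over 15 libraries plus 1 (log axis) against the percent of 50-base windows that also occur in another GENCODE M21 transcript, for the 13 mitochondrial mRNAs, with complex I members as circles and the other mRNAs as squares. mt-Nd3 and mt-Nd4l sit at 98.0% and 98.8% shared windows with 254 and 0 reads, whereas mt-Nd6 has 0 reads at 0% shared.

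In all, the members took a small share of the reads on genes. The share was 0.628% in WT replicate 1, 0.903% in WT replicate 2 and 0.440% in WT replicate 3. In dystrophic-derived EVs it ran from 0.220% to 0.467% with a median of 0.376%, and in hypertrophic-derived EVs from 0.297% to 1.06% with a median of 0.354%. The ranges overlapped in every pair of conditions, and the means were 0.657% ± 0.233 (SD, n = 3), 0.363% ± 0.0928 (SD, n = 6) and 0.573% ± 0.377 (SD, n = 6), respectively. WT replicate 1 contributed only 171 reads on the members, so that its share has a 95% Wilson interval of 0.541% to 0.729%, which again covers counting error only. With the 6 libraries of crossed numbers exchanged, the dystrophic-derived mean became 0.494% and the hypertrophic-derived mean 0.442%, so that their order turned. Within the lower series of title numbers, which holds all WT-derived libraries, the dystrophic-derived mean was 0.406% ± 0.0683 and the hypertrophic-derived mean 0.582% ± 0.419 (SD, n = 3 each). Within the higher series they were 0.320% ± 0.106 and 0.564% ± 0.423 (SD, n = 3 each). By the library numbers on the counts, however, all WT-derived and dystrophic-derived libraries fall in the lower series and all hypertrophic-derived ones in the higher. By those numbers, series and hypertrophic condition cannot be told apart.

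As a share of the reads on all 13 mitochondrial mRNAs, the members made up 40.6% to 52.8% in WT-derived EVs, 23.2% to 46.6% in dystrophic-derived EVs and 20.02% to 43.8% in hypertrophic-derived EVs. These ranges overlapped as well. Most of the remainder fell on mt-Cytb, the mitochondrial subunit of complex III, and mt-Co1, the catalytic subunit of complex IV, which had mean levels of 3936 CPM and 4815 CPM over the 15 libraries. Since each library is a bulk sample, fewer vesicles with mitochondrial RNA and less such RNA per vesicle cannot be told apart.

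mt-Nd1, which lies next to the ubiquinone-binding site, had levels of 2020, 3359 and 1546 CPM in WT replicates 1 to 3. In dystrophic-derived EVs it ran from 16.8 to 1574 CPM with a median of 959 CPM, and in hypertrophic-derived EVs from 401 to 3712 CPM with a median of 1510 CPM. Of the dystrophic-derived libraries only the highest reached above the lowest WT-derived library, while the hypertrophic-derived libraries spanned the whole WT range. The means were 2308 ± 940, 848 ± 570 and 1938 ± 1259 CPM (SD; n = 3, 6 and 6).

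mt-Nd2, the first of the antiporter-like proton-pumping subunits, had 918, 1924 and 612 CPM in the WT-derived libraries. It ran from 0.622 to 1198 CPM in dystrophic-derived EVs, with a median of 349 CPM, and from 0 to 2676 CPM in hypertrophic-derived EVs, with a median of 597 CPM. Both its lowest and its highest level came from hypertrophic-derived EVs, and its ranges overlapped between all conditions. Its means were 1151 ± 686, 403 ± 424 and 1036 ± 1153 CPM.

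mt-Nd4, another antiporter-like subunit, had 3012, 2379 and 1697 CPM in the WT-derived libraries. Dystrophic-derived EVs ranged from 862 to 3930 CPM with a median of 1246 CPM, and hypertrophic-derived EVs from 144 to 3092 CPM with a median of 1666 CPM. The highest level of all came from dystrophic replicate 4 and the lowest from hypertrophic replicate 4, so that the conditions overlapped at both ends. Its means were 2363 ± 657, 1759 ± 1136 and 1759 ± 1125 CPM, the last 2 differing by far less than their spread.

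mt-Nd5, the antiporter-like subunit at the far end of the membrane arm, had 331, 1372 and 545 CPM in the WT-derived libraries. In dystrophic-derived EVs it stayed between 369 and 827 CPM with a median of 621 CPM, and in hypertrophic-derived EVs it ran from 30.4 to 1794 CPM with a median of 1013 CPM. The dystrophic-derived range lay inside both others. The means were 749 ± 550, 617 ± 163 and 994 ± 642 CPM.

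With the 6 libraries of crossed numbers exchanged, the dystrophic-derived and hypertrophic-derived means became 1454 and 1332 CPM for mt-Nd1 and 915 and 524 CPM for mt-Nd2. They became 1659 and 1859 CPM for mt-Nd4 and 906 and 706 CPM for mt-Nd5. The exchange turned the order of these conditions for mt-Nd1, mt-Nd2 and mt-Nd5, whose means by the labels were higher in hypertrophic-derived EVs.

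mt-Nd3, a small core subunit whose loop takes part in the switch between active and resting enzyme, reached 21.4 CPM in dystrophic replicate 1, 0.0307 CPM in dystrophic replicate 6 and 39.3 CPM in hypertrophic replicate 2. mt-Nd4l, the subunit next to mt-Nd6 in the membrane arm, and mt-Nd6 were at 0 CPM throughout.

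**Figure D2:**
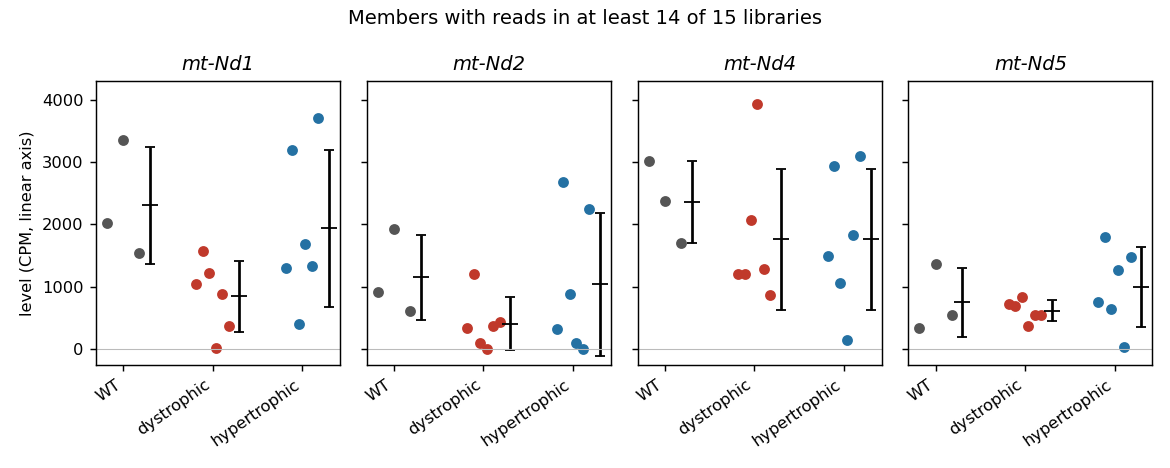
Levels in CPM on a linear axis of the 4 members with reads in at least 14 libraries, with 1 point per library and the mean ± SD of each condition beside the points. The points of the conditions overlap for each member, and mt-Nd1 in dystrophic-derived EVs comes closest to standing apart, with a highest level of 1574 CPM against a lowest WT level of 1546 CPM.

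Per kilobase of gene, the mean levels over the 15 libraries followed the order mt-Nd1 (1647 ± 1148 CPM per kilobase), mt-Nd4 (1364 ± 739), mt-Nd2 (776 ± 820), mt-Nd5 (436 ± 263) and mt-Nd3 (11.6 ± 32.2). Among the first 4, each neighbouring pair in this order differed by less than the larger SD of the pair. mt-Nd1 led in WT-derived and hypertrophic-derived EVs, and mt-Nd4 led by mean in dystrophic-derived EVs, where mt-Nd1 led by median. Where only windows found in no other annotated transcript were taken as countable, the order of the first pair turned. Per 1000 such windows, mt-Nd4 then had a mean of 3744 CPM, mt-Nd1 1736, mt-Nd2 887 and mt-Nd5 484. This scale was chosen after the data had been seen and assumes that reads of shared windows were not counted on the gene. Beside the members, mt-Cytb (3440 CPM per kilobase) and mt-Co1 (3116 CPM per kilobase) ranked above all of them.

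Within single libraries the split of the member reads among the genes varied widely. By raw count, mt-Nd4 led in 10 libraries and mt-Nd1 in 5, and the lowest of the 4 widely detected members was mt-Nd2 in 7, mt-Nd5 in 6 and mt-Nd1 in 2. The 3 WT-derived libraries were alike in their mt-Nd1 share, at 32.2% to 37.2% of the member reads, whereas dystrophic-derived libraries ran from 0.389% to 33.7% and hypertrophic-derived ones from 13.5% to 52.8%.

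A few libraries were dominated by 1 or 2 members. In dystrophic replicate 4, mt-Nd4 took 6322 of 6944 member reads, or 91.0% (95% Wilson interval 90.3% to 91.7%), beside 27 reads of mt-Nd1 and 1 read of mt-Nd2. In hypertrophic replicate 4, the order was inverted, with 761 reads of mt-Nd1 and 570 of mt-Nd5 against 65 of mt-Nd4, which was 4.51% (3.55% to 5.71%). In hypertrophic replicate 5, mt-Nd4 and mt-Nd1 held 604 and 438 of 1052 reads, while mt-Nd5 had 10 and mt-Nd2 none. The intervals cover counting error only, not the spread between separately amplified libraries. These 3 libraries had 1103, 1373 and 814 detected genes, against 797 to 8968 over the series, and WT replicate 1, with the fewest, had 32.2% mt-Nd1, 14.6% mt-Nd2, 48.0% mt-Nd4 and 5.26% mt-Nd5.

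The ratio of mt-Nd1 to mt-Nd4 reads had a median of 0.860 and ranged from 0.00427 in dystrophic replicate 4 to 11.7 in hypertrophic replicate 4. Among the WT-derived libraries it stayed between 0.671 and 1.41. The ratio of mt-Nd5 to mt-Nd4 ranged from 0.0166 in hypertrophic replicate 5 to 8.77 in hypertrophic replicate 4, around a median of 0.510. The ratio of mt-Nd2 to mt-Nd1 ranged from 0 to 2.19, with a median of 0.413. All 4 genes stand on the same DNA strand, and the ratios of their reads nevertheless varied between libraries.

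**Figure D3:**
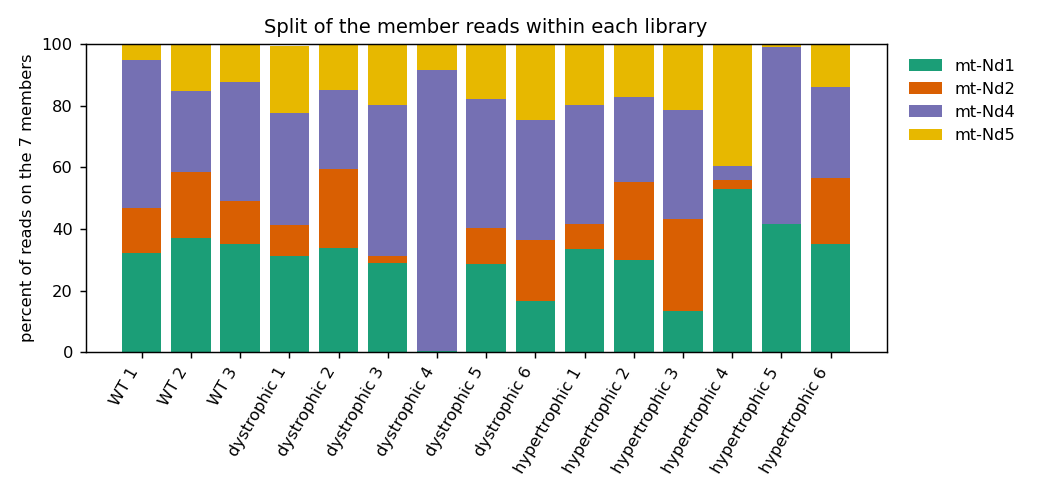
Percent of the reads on the 7 members that fell on mt-Nd1, mt-Nd2, mt-Nd4 and mt-Nd5 in each library, as stacked bars from 0 to 100%. mt-Nd3, at most 0.643%, is the small gap at the top of a bar, and dystrophic replicate 4 is nearly all mt-Nd4 (91.0%) while hypertrophic replicate 4 holds 4.51% of it.

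Across the 15 libraries, Spearman's rho between the CPM of pairs of these 4 members was between 0.05 and 0.61, with a median of 0.40 over the 6 pairs, as a description of libraries that also share depth differences and amplification. mt-Nd1 and mt-Nd2, neighbours on the genome, had the highest value (0.61), and mt-Nd4 and mt-Nd5, also neighbours, the lowest (0.05). mt-Nd4 ran closer to mt-Cytb (0.74) and to the ribosomal RNAs mt-Rnr1 (0.69) and mt-Rnr2 (0.66) than to any other member. The summed CPM of the members had a rho of 0.14 with the reads on genes, -0.06 with the number of genes detected and -0.27 with the hemoglobin share.

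Among the 162 nuclear genes with reads in every library, those whose CPM ran most like the summed members were Plac8 (rho 0.52), Akt2 (0.46), S100a10 (0.40), Myl6 (0.38) and Actb (0.37), over the same 15 libraries. They are the top of 162 values and were not tested. The lowest value, of Ybx1 (-0.625), was larger in size than any of them.

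To compare conditions, a quasi-likelihood model was fitted in edgeR to all 15 libraries, with TMM normalization (a scaling by the trimmed mean of log ratios between libraries) and Benjamini-Hochberg adjustment over 6887 genes. mt-Nd1, mt-Nd2, mt-Nd4 and mt-Nd5 were among the genes tested, while mt-Nd3, mt-Nd4l and mt-Nd6 had too few reads. Whether the p-values cover more than the spread between these pooled libraries cannot be told from the labels. The Sgcb null mice that the paper lists for plasma are too few for 6 separate pools of 2 to 3 mice. Whether libraries of a condition shared mice is not given, and the fit treats them as independent.

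In dystrophic-derived against WT-derived EVs, 0 of 4 members passed an adjusted p under 0.05, where 0.0145% of all genes did, and 0 passed an unadjusted p under 0.05, where 139 genes did. The log2 fold change was -1.60 ± 0.97 (SE) for mt-Nd1 (edgeR adjusted p = 0.433) and -1.60 ± 1.23 for mt-Nd2 (0.542), and it was nearer 0 for mt-Nd4 (-0.45 ± 0.93) and mt-Nd5 (-0.48 ± 1.29). With the 6 crossed libraries exchanged, mt-Nd1 came to -0.80 and mt-Nd2 to -0.42, and without WT replicate 2 mt-Nd2 came to -0.89. The median of the 4 values by the labels was -1.04, beside 1.38 over all genes tested. The median over all genes was unstable, at 8.15 without WT replicate 2 and 0.53 with only the 9 libraries of matching numbers. None of the 4 had CPM ranges without overlap between the conditions, as 0.755% of the genes tested did.

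In hypertrophic-derived against WT-derived EVs, again 0 of 4 members passed, where 0.029% of all genes did, and 0 had an unadjusted p under 0.05, where 552 genes did. mt-Nd1 had a log2 fold change of -0.43 ± 0.99, mt-Nd2 of -0.14 ± 1.27, mt-Nd4 of -0.46 ± 0.93 and mt-Nd5 of 0.12 ± 1.32, with edgeR adjusted p-values from 0.974 to 1. With the 6 libraries exchanged, mt-Nd1 came to -1.001, mt-Nd2 to -1.02 and mt-Nd5 to -0.33. The median was -0.28, beside 0.66 over all genes, and 0 members were without overlap, against 0.45% of all genes. Here too the median over all genes was unstable, at 5.96 without WT replicate 2 and -0.12 with only the 9 libraries of matching numbers.

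In hypertrophic-derived against dystrophic-derived EVs, 0 of 4 members passed, where 0.0145% of all genes did, and 0 had an unadjusted p under 0.05, where 823 genes did. The values were 1.17 ± 0.83 for mt-Nd1, 1.46 ± 1.06 for mt-Nd2, -0.0012 ± 0.77 for mt-Nd4 and 0.60 ± 1.08 for mt-Nd5, with a median of 0.89 beside -0.52 over all genes. No member was without overlap, against 0.16% of all genes. With the 6 libraries exchanged, the values for mt-Nd1 and mt-Nd2 turned to -0.20 and -0.60. Without hypertrophic replicate 6, mt-Nd1 came to 0.72, and without hypertrophic replicate 2, mt-Nd2 came to 0.79. The comparisons share libraries, so that the values of the 3 are not independent of each other.

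DESeq2, run as an alternative, called 1315, 1528 and 323 genes in these 3 comparisons but likewise 0 members. With SEs between 0.77 and 1.32, fitted differences as large as -1.60 could not be told from the spread between libraries, which does not show that the members were alike.

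**Figure D4:**
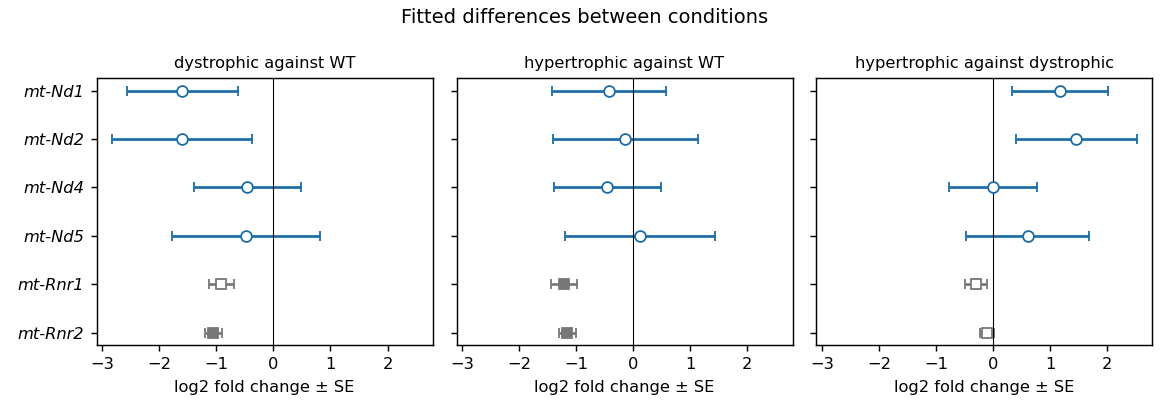
Fitted log2 fold changes ± SE from edgeR for the 4 tested members (circles) and the mitochondrial ribosomal RNAs (squares) in the 3 comparisons, where filled symbols mark an adjusted p under 0.05. The members are all open, with SEs from 0.77 to 1.32, whereas mt-Rnr2 is filled in both comparisons with WT and mt-Rnr1 in hypertrophic against WT.

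The mitochondrial ribosomal RNAs, which lie just before mt-Nd1 on the same strand, had smaller SEs than the members in the edgeR fit. Their joint share of the gene reads averaged 19.8% in WT-derived EVs (SD 0.855, n = 3), 10.3% in dystrophic-derived EVs (SD 4.52, n = 6) and 10.4% in hypertrophic-derived EVs (SD 4.31, n = 6). mt-Rnr2, the large ribosomal RNA, fell in dystrophic-derived EVs by 1.05 ± 0.15 on the log2 scale (edgeR adjusted p = 4.18e-08) and in hypertrophic-derived EVs by 1.16 ± 0.15 (adjusted p = 2.39e-10). mt-Rnr1, the small one, fell in hypertrophic-derived EVs by 1.21 ± 0.22 (edgeR adjusted p = 0.000154), while its value of -0.91 ± 0.22 in dystrophic-derived EVs did not pass (adjusted p = 0.154). These calls were lost with DESeq2 and in edgeR without a filter on low counts, where the lowest adjusted p of the pair was 0.380. DESeq2 gave mt-Rnr2 an SE of 1.10 in both comparisons with WT, so that the small SEs depend on the model. Over the dystrophic-derived libraries mt-Rnr2 ran from 35386 to 126248 CPM. The mt-Rnr2 calls held with each library left out in turn, and that of mt-Rnr1 in 10 of 15 such fits, being lost without WT replicate 2, dystrophic replicates 1, 2 or 5, or hypertrophic replicate 1. In edgeR the SE of mt-Nd1 in the first comparison was 0.97, so that a fitted value larger than that of mt-Rnr2 did not pass. Whether the members and the ribosomal RNAs changed to a different extent was not tested.

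The other mitochondrial mRNAs gave the same outcome as the members, with 0 of 3 tested genes called in each comparison. Besides mt-Cytb and mt-Co1, mt-Atp8 had reads in 6 libraries, mt-Atp6 in 5, mt-Co3 in 2 and mt-Co2 in 1.

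Complex I also needs subunits from the nucleus, whose mRNAs could be counted for 36 genes, 7 core and 29 accessory. They were far less regularly detected than mt-Nd1 or mt-Nd4, but not than every member. Each of the 36 had reads in some library, from 3 libraries for Ndufb2 to 12 for Ndufa3. Among the members, mt-Nd3 had reads in 3 libraries and mt-Nd4l and mt-Nd6 in 0. The WT-derived libraries had reads on 0, 28 and 18 of the 36, the dystrophic-derived ones on 3 to 36 and the hypertrophic-derived ones on 4 to 28. No nuclear-encoded subunit had reads in all 15 libraries, and the number detected was lowest in WT replicate 1, the shallowest library. A count of 0 allows up to 110 CPM there. This library had reads on all 4 widely detected members, but these were singled out by their reads in at least 14 libraries.

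Summed over the 7 nuclear core subunits, the level ran from 0 to 948 CPM in WT-derived, 0 to 891 CPM in dystrophic-derived and 0 to 1013 CPM in hypertrophic-derived EVs. Ndufs8, which belongs to the arm that carries electrons towards ubiquinone, led this group (mean 115 CPM, reads in 9 libraries). Among the accessory subunits, Ndufs4 (194 CPM, 9 libraries) and Ndufa2 (166 CPM, 11 libraries) led. Of the 7 core and 29 accessory genes tested, 0 passed in any comparison in either direction, with medians of 0.20 and 0.40 in dystrophic against WT, -0.05 and -0.27 in hypertrophic against WT and -1.95 and -0.52 in hypertrophic against dystrophic.

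**Figure D5:**
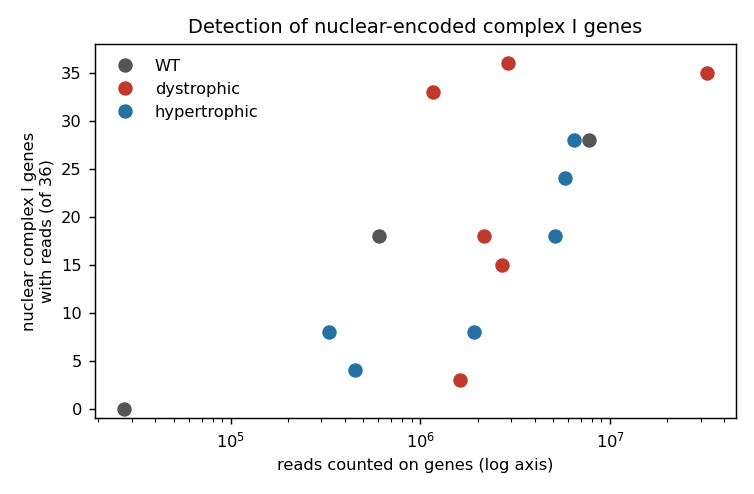
Number of the 36 nuclear-encoded complex I genes with at least 1 read against the reads on genes of each library (log axis), 1 point per library, coloured by condition. The count runs from 0 in WT replicate 1, with 27227 reads on genes, to 36 in dystrophic replicate 5.

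Assembly factors of complex I were scarcer still. Of 13 in the list, 11 had reads in some library, led by Acad9 with a mean of 33.6 CPM and reads in 4 libraries, and 0 of the 6 tested passed in any comparison. Of 14 genes for transcription and mRNA handling in mitochondria, 12 had reads, led by Tfam, the factor that packages mitochondrial DNA and starts its transcription (mean 55.6 CPM, 8 libraries), and 0 of the 10 tested passed. Polrmt, the mitochondrial RNA polymerase, was at 0 in all libraries.

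Markers of blood cells were present beside the members in every library, while the EV marker Cd9 also had reads in all 15 and Cd81 and Cd63 in 11 and 10. Summed platelet markers (8 of 8 read in some library) ran from 18379 to 28758 CPM in WT-derived, 9685 to 20525 CPM in dystrophic-derived and 14295 to 33641 CPM in hypertrophic-derived EVs. The hemoglobin-led erythroid markers (7 of 7) ran from 22933 to 88148, 47208 to 155950 and 29999 to 88291 CPM, and leukocyte markers (7 of 7) from 1510 to 2681, 1180 to 3498 and 1535 to 5179 CPM. Skeletal muscle markers (7 of 8, Myh4 at 0) reached at most 345, 143 and 281 CPM, and hepatocyte markers (6 of 6) 65.8, 156 and 2181 CPM. The rho of the summed members over the 15 libraries was 0.09 with platelet, -0.32 with erythroid, -0.39 with leukocyte, 0.43 with skeletal muscle and 0.11 with hepatocyte markers. The skeletal muscle sum had a lowest value of 0 CPM in each condition and a median of 0.0977 CPM in hypertrophic-derived EVs. Its rho therefore rests in part on values at or near the floor. The part of these cells in the members' levels was not tested.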

How the data were processed

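RNA-seq of plasma EVs was analysed in 15 libraries. The authors aligned single reads with TopHat to mm10, counted them per gene symbol (HTSeq is named in the submitters' processing notes, which give no mode and no annotation) and deposited raw counts, without normalization or filter. The 5 summary lines of each table were left out of library sizes. The molecule is labelled polyA RNA, and the kit is named as TruSeq Stranded mRNA in the labels and as TruSeq RNA v2 in the study's methods.

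CPM were computed over all gene rows. The members and the gene lists were chosen with earlier results of these data known. All 7 members are described. From each other list the genes with the highest mean CPM were named, at most 5 a list, plus any that passed the test, and so were the 5 nuclear genes most like the summed members by Spearman's rho. Reads per library ran from 27227 to 32563362. Counts were tested with edgeR 4.0.16 (limma 3.58.1, R 4.3.3) with filterByExpr, TMM and a quasi-likelihood fit of the 3 conditions to all libraries, whose common biological coefficient of variation was 3.04. SEs came from the F statistic. On simulated data of hypertrophic against WT over 6855 genes, 97.5% of 200 genes changed 8-fold were recovered, with 3.47% false calls. The simulated counts were drawn with a much smaller spread than the fitted one. This recovery therefore checks that the code runs correctly and is not the power of the test on these libraries. Alternatives were DESeq2 1.42.0, other scalings and filters, other denominators, each library left out in turn, the title number series as a covariate, and the 6 libraries with crossed numbers exchanged or left out. Replicate numbers only name libraries. Sequences and coordinates are from GENCODE M21 transcripts, and 39483 of 43472 symbols were found there. No genome or protein sequence was used here.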

Additional observations from a re-analysis of the deposited data

Results flagged for a closer look

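Within the conditions of 6 libraries, the sample with the highest or lowest value was compared with its nearest neighbour in a Dixon test, which flags about 1 in 20 groups by chance. The values were the CPM of mt-Nd1, mt-Nd2, mt-Nd4 and mt-Nd5 and ratios of reads among these genes and mt-Cytb. Added to them were the summed share of the members in the reads on genes and in those on mitochondrial mRNAs. Of 22 groups tested, 4 held such a sample. The share of each gene within the member reads was not tested in this way. mt-Nd2 stood at 1198 CPM in dystrophic replicate 2, against 434 CPM in the next library. Hypertrophic replicate 4 stood apart in 3 ratios. Its ratio of mt-Nd1 to mt-Nd4 reads was 11.7 against 1.20 in the next library, that of mt-Nd5 to mt-Nd4 reads was 8.77 against 0.612, and that of mt-Nd5 to mt-Cytb reads was 1.16 against 0.318.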

How the results depend on the processing

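No member passed the test in any of the 3 comparisons under any alternative. Among the 4 members tested in the main fit the lowest adjusted p was 0.414, from edgeR. Of 312 fold changes recomputed for 12 pairs of member and comparison, 31 changed sign, in 8 pairs. With the 6 crossed libraries exchanged, mt-Nd5 turned to 0.0094 in dystrophic against WT and -0.33 in hypertrophic against WT, and in hypertrophic against dystrophic mt-Nd1 turned to -0.20, mt-Nd2 to -0.60, mt-Nd4 to 0.25 and mt-Nd5 to -0.34. With only the 9 other libraries, mt-Nd5 turned to -0.17 in hypertrophic against WT and mt-Nd4 to 0.30 in hypertrophic against dystrophic. In the latter, mt-Nd4 was also positive without TMM (0.0072), without a filter (0.068), with only the conditions compared (0.066) and with the title series as a covariate (0.053), where mt-Nd2 in hypertrophic against WT turned to 0.082. With libraries left out in turn, mt-Nd5 in dystrophic against WT ran from -0.94 (without WT replicate 1) to 0.29 (without WT replicate 2). In hypertrophic against WT, the ranges were -0.74 to 0.036 for mt-Nd1, -0.68 to 0.58 for mt-Nd2 and -0.35 to 0.88 for mt-Nd5, each highest without WT replicate 2, and in hypertrophic against dystrophic mt-Nd4 ran from -0.20 to 0.38, highest without dystrophic replicate 4. The cause was not tested.

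The count of all genes called was 0 to 3 in every edgeR setting, but 1315, 1528 and 323 with DESeq2, which gave no adjusted p for 645 genes in each comparison. Without a filter, edgeR called 0 genes of 13281 (580, 1120 and 4382 at an unadjusted p under 0.05), so that the ribosomal RNA calls were lost. Library sizes without TMM moved the median of all genes from 1.38, 0.66 and -0.52 to 1.57, 1.02 and -0.37. With the reads of the 13 mitochondrial mRNAs as the denominator the mean shares were 48.2%, 36.1% and 33.6%, a change made by the denominator itself, and exchanged labels gave 0.494% in dystrophic-derived EVs. The mt-Nd4 to mt-Nd1 level ratio was -0.27 on the log2 scale per kilobase and 1.11 per unique window.

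No paired analysis was possible because the labels give no number that pairs libraries across conditions. Depth limits WT replicate 1 most, where a count of 0 allows up to 110 CPM, and 3 WT-derived libraries limit both comparisons with WT.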
